A study of Homo sapiens with 3 samples.

Results

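Notch signaling was followed through 10 genes across growing and senescent human lung fibroblasts: the receptors NOTCH1, NOTCH2 and NOTCH3, the ligands JAG1 and DNER, and the targets HES1, HES4, HEY1, HEY2 and HEYL. They were chosen by name, with earlier results of these data known, from 19775 genes named on the array. Every probe set whose annotation names 1 of them and no other gene was used, 25 in all. HES1 and HEY1 were several-fold higher in the cells senescent from activated Ras than in the other cultures. DNER was higher in both senescent cultures, most of all after replicative exhaustion. NOTCH2 was lower in the Ras culture than in either of the others.

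The arrays came from 3 cultures of IMR-90 ER:Ras, a derivative of the established human lung fibroblast line IMR-90 that carries an inducible Ras. All 3 carried ER:Ras and were kept in medium with serum. Growing cells had no treatment. Cells in oncogene-induced senescence (OIS) had 100 nM 4-hydroxytamoxifen (4-OHT), the agent that switches ER fusions on, for 6 days. Cells in replicative senescence (RS) had been passaged repeatedly for 10 weeks and got no 4-OHT by their labels. There was 1 array per condition and none without ER:Ras, so the effects of Ras and of 4-OHT cannot be told apart, and no spread between cultures, test or p-value can be given.

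Notch receptors sit in the cell membrane and are cut when a ligand on a neighbouring cell, such as a Jagged or Delta protein, binds them. An ADAM protease cuts outside the membrane and gamma-secretase inside it, which frees the intracellular part to enter the nucleus. There it joins the DNA-binding protein RBPJ and a Mastermind coactivator and switches on genes of the HES and HEY families, basic helix-loop-helix repressors that in turn silence other genes. In fibroblasts Notch activity is known to vary during senescence and to influence the secreted proteins of senescent cells. RNA levels of receptors and ligands do not measure cleavage.

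The promoter sequences of the targets are shown because RBPJ recognises a short core, TGGGAA, and because HES1 differed between the cultures while HES4, HEYL and HEY2 had small differences or none that could be measured. Each is the 250 bases before the RefSeq start of the gene in GRCh38.p14, written 5′ to 3′ on the strand of the gene, with TGGGAA, or its reverse complement TTCCCA, in capitals. HES1 lies at chr3:194135898-194136147, plus strand. HES4 lies at chr1:1000098-1000347, minus strand. HEYL lies at chr1:39639644-39639893, minus strand. HEY2 lies at chr6:125749382-125749631, plus strand. The table held 8 of the 10 genes and not DNER or HEY1.
HES1: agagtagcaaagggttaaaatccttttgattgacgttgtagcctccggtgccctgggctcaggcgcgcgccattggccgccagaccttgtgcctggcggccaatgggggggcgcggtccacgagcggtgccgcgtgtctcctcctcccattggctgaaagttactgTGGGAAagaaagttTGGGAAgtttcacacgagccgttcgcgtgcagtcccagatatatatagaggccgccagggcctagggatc
HES4: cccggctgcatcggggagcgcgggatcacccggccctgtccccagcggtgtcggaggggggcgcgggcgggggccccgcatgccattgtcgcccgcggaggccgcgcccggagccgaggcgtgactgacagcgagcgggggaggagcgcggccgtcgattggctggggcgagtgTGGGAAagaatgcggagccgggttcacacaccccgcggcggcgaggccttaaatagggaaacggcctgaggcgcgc
HEYL: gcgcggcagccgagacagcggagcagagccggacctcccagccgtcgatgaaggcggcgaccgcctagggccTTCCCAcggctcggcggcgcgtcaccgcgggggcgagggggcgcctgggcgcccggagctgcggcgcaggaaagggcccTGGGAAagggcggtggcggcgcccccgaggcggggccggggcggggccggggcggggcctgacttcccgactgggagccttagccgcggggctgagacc
HEY2: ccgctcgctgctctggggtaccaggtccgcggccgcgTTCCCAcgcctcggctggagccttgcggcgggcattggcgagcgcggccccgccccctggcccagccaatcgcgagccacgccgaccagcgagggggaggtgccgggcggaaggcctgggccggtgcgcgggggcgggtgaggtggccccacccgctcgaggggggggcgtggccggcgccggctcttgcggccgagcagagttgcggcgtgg

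The HES1 promoter held TGGGAA 2 times on the strand of the gene, with first bases 84 and 70 bases before the start, 14 bases apart. HES4 held 1 on that strand, 76 bases before the start. HEYL held it at 99 bases on that strand and at 178 bases on the opposite strand, and HEY2 only on the opposite strand at 213 bases. The NOTCH1, NOTCH2, NOTCH3 and JAG1 windows held none. Of 35116 promoter windows of the same length in the table, 20.8% held the core on either strand. At least 2 cores were held by 2.9%, as by HES1 and HEYL. A pair with starts at most 30 bases apart was held by 0.649%, as by HES1. HES1 protein is known to repress its own gene through N boxes, CACNAG. The HES1 window held 3 of these counting both strands, none overlapping TGGGAA, against 3 or more in 0.911% of windows and at least 1 in 32.0%. These matches describe letters and are not measured binding sites, and their part in the signals was not tested. The signals of these genes are given with each gene.

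All values are MAS5 signals, a linear brightness per probe set that had been scaled to a common mean on each array. The floor was 45.5 signal units, the median of the 3 arrays together, and lower values were raised to it before ratios were taken. A gene was represented by its brightest probe set and counted as measured if that was over the floor on any array, as 13466 of 19775 genes were. Signals of different probe sets are not compared with each other. Repeat measurements exist only where a gene has another usable probe set: over 6759 genes the ratios of such a pair differed by a median of 1.18-fold for OIS over growing cells, and 5.34% of pairs differed by 2-fold or more. The arrays were alike, with 49.8% to 50.3% of probe sets above the floor. The 10 fibroblast markers of the fixed list were above the floor on every array. The proliferation marker MKI67 was 5.69-fold lower in OIS and 4.21-fold lower in RS than in growing cells. HRAS had signals of 7696, 11748 and 2553 in growing, OIS and RS cells, and whether its probe set reads the ER:Ras transgene was not tested.

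Of the 25 probe sets 18 were over the floor on at least 1 array, as were 9 of the 10 genes. The 10 genes were chosen with earlier results of these data known. Their counts are therefore no test of the set against the shares of all genes. In OIS against growing cells, 3 of the 9 measured genes were higher by 2-fold or more, where 4.92% of all measured genes were. NOTCH2 alone of the 9 was lower by that much, where 6.63% of all were. In RS against growing cells DNER alone of the 9 was higher by 2-fold or more, where 3.72% of all measured genes were, and 0 were lower by that much, where 5.58% were. Between the senescent cultures, OIS was higher than RS by 2-fold or more in 2 of the 9, where 5.48% of all were, and lower in 2, where 5.27% were. The median log2 ratio of the 9 against growing cells was 0.41 in OIS and 0.35 in RS. For OIS over RS it was -0.05, and that of all measured genes was 0.00 in each. In RNA of a whole culture, a change in a few cells and a smaller change in all of them cannot be told apart. Both comparisons with growing cells use the same growing array, so their values are given side by side and no relation between them is drawn.

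**Figure D1:**
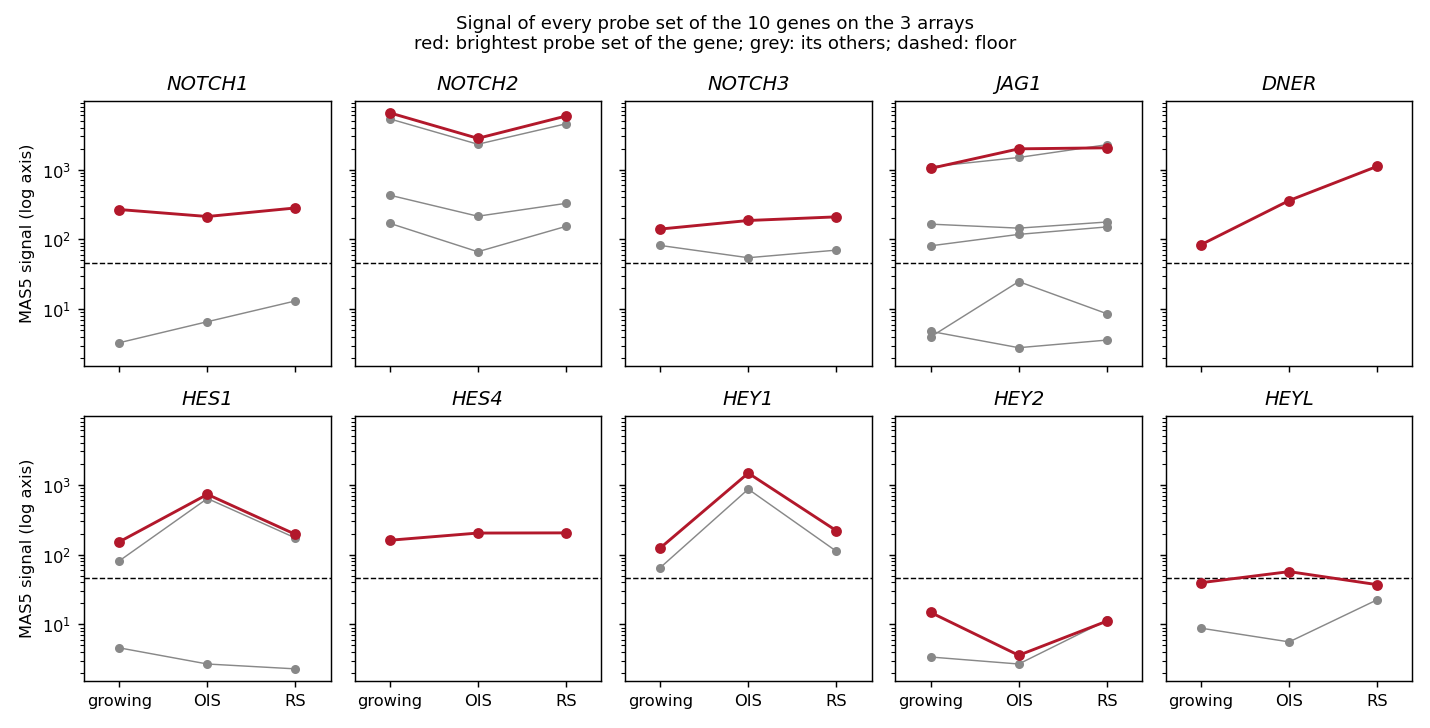
MAS5 signal on a log axis for every probe set of the 10 genes on the growing, OIS and RS arrays, with the brightest probe set of each gene in red, its others in grey and the floor of 45.5 dashed. HES1 and HEY1 peak in OIS, DNER is highest in RS at 1112, NOTCH2 dips in OIS, and both HEY2 probe sets lie below the floor on all 3 arrays.

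NOTCH2, a receptor present in many mesenchymal cells, gave the clearest receptor difference. The brightest of its 4 probe sets had signals of 6492 in growing, 2798 in OIS and 5838 in RS cells. OIS was low, and growing and RS cells lay close together. The ratio was 2.32-fold lower for OIS and 1.11-fold lower for RS against growing cells, and OIS was 2.09-fold below RS. The 4 probe sets gave log2 ratios from -1.35 to -1.0 for OIS over growing cells, each past 2-fold. For RS they gave -0.39 to -0.15. For OIS over RS they ranged from -1.21 to -0.61, and 2 of 4 were past 2-fold.

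All 4 NOTCH2 probe sets are of types whose names end in _s_at or _x_at, which can bind more than 1 transcript. NOTCH2 has near-identical partial copies, the NOTCH2NL genes, so its values are uncertain to that extent. A further probe set, named for NOTCH2 and 4 such copies together, read 1078 in growing, 951 in OIS and 863 in RS cells. It was 1.13-fold lower in OIS and 1.25-fold lower in RS than in growing cells, and thus did not show the low OIS value of the 4 others. What part of any probe set's signal came from the copies was not tested.

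NOTCH1, the receptor best known from leukaemia and tissue patterning, read 267 in growing, 212 in OIS and 282 in RS cells on the 1 probe set above the floor. The values were close, OIS being 1.26-fold lower and RS 1.05-fold higher than growing cells. Its other probe set lay between 3.3 and 13.1, below the floor on every array.

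NOTCH3, a receptor of vascular smooth muscle and pericytes, had a pair of probe sets that gave opposite directions. The brighter read 140 in growing, 186 in OIS and 210 in RS cells, with log2 ratios of 0.41 for OIS and 0.58 for RS over growing cells. The other read 81.7, 54.5 and 70.0 in the same order, with log2 ratios of -0.58 and -0.22. No direction is given for NOTCH3. With the median of its probe sets the log2 ratio of OIS over growing cells was -0.09.

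The ligand JAG1, which activates Notch receptors on neighbouring cells, was nearly 2-fold higher in both senescent cultures. Its brightest probe set read 1038 in growing, 1978 in OIS and 2048 in RS cells. Growing cells were low and the senescent cultures alike, 1.91-fold and 1.97-fold higher, just short of the 2-fold mark. A probe set of similar brightness read 1094, 1488 and 2268, which put RS 2.07-fold and OIS 1.36-fold above growing cells. The remaining 2 above the floor gave log2 ratios of -0.19 and 0.54 for OIS and 0.10 and 0.90 for RS. So 4 of 4 were higher in RS and 3 of 4 in OIS, by amounts that varied between probe sets. After quantile normalization the brightest one passed 2-fold in RS, at a log2 ratio of 1.04, and with the median over its 6 probe sets, 2 of them dim everywhere, the log2 ratio was 0.22 in OIS and 0.50 in RS.

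DNER, a transmembrane protein with EGF repeats that is made mainly by neurons and has been described as a non-classical Notch ligand, was the gene of the 10 that differed most in RS. Its 1 probe set read 83.9 in growing, 360 in OIS and 1112 in RS cells. Growing cells were lowest and RS highest. RS was 13.2-fold and OIS 4.29-fold above growing cells, and OIS was 3.09-fold below RS. Among the 13466 measured genes its ratio was number 3 from the top in RS and number 162 in OIS. It had no second probe set to compare.

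Neural markers were read beside DNER because of where the gene is usually expressed. Of 10 neural markers 5 were below the floor on all 3 arrays, namely SYP, RBFOX3, NEFL, STMN2 and DCX. The summed signal of the list was 1093 in growing, 1701 in OIS and 1190 in RS cells, of which most was SYT1, at 725, 1446 and 796. Of the 5 measured markers 1 was past 2-fold in OIS, NEFM, at least 2.11-fold higher, and 0 were past it in RS. Of all measured genes 11.6% were past 2-fold in either direction in OIS and 9.3% in RS. The part of the neural markers in the DNER difference was not tested.

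HEY1, a repressor that is a direct target of cleaved Notch and is also induced by BMP signaling, was the gene of the 10 that differed most in OIS. The brighter of its 2 probe sets read 124 in growing, 1467 in OIS and 220 in RS cells. The other read 64.8, 865 and 112. On both, OIS stood far above the rest and RS was somewhat above growing cells. OIS was 11.8-fold and 13.3-fold above growing cells, and 6.68-fold and 7.76-fold above RS, while RS was 1.77-fold and 1.72-fold above growing cells. Among measured genes the HEY1 ratio was number 48 from the top for OIS over growing cells and number 80 for OIS over RS. The second probe set is of the type designed for a single transcript, and the difference was as large there as on the cross-hybridizing one.

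HES1, the repressor often taken as a readout of Notch activity although other signals also induce it, had the same order of cultures. Its brightest probe set read 152 in growing, 728 in OIS and 194 in RS cells. A second read 81.2, 635 and 173. OIS was high on both, and RS lay nearer to growing cells. OIS was 4.79-fold and 7.82-fold above growing cells and 3.74-fold and 3.68-fold above RS. RS was 1.28-fold above growing cells on the first and 2.13-fold on the second, so the pair differed on whether RS passed 2-fold. The remaining probe set, the only one of the single-transcript type, read between 2.3 and 4.6 and so gave no ratio. Without the cross-hybridizing type HES1 was not measured.

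The other targets had smaller differences or none that could be measured. HES4, a relative of HES1, read 160 in growing, 203 in OIS and 204 in RS cells on its 1 probe set, 1.27-fold and 1.28-fold above growing cells. HEYL, known from vascular smooth muscle, read 39.5, 56.9 and 37.0, above the floor in OIS alone and there at least 1.25-fold higher, with no ratio between RS and growing cells. HEY2, known from heart and arteries, was below the floor on both probe sets in all 3 cultures, with signals from 2.7 to 14.8. So 2 of the 5 targets were at least 2-fold higher in OIS, 2 were short of 2-fold and 1 was not measured. Of all measured genes 4.92% were higher by that much in OIS.

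Endothelial and mural cells also express HEY1, HEYL and NOTCH3, so their markers were read alongside. Of 10 endothelial markers 6 were below the floor on all arrays, among them CDH5, KDR, TIE1 and CLDN5. Of the 4 measured ones 3 were at least 2-fold higher in OIS, including ROBO4 at 5.47-fold, where 4.92% of all measured genes were. In RS 0 of the 4 were past 2-fold, where 9.3% of all were in either direction. The summed signal was 1518 in growing, 2175 in OIS and 2272 in RS cells, of which most was TEK, at 1251, 1275 and 2033. The other 3 measured markers summed to 214, 842 and 192, of which ROBO4 gave 105, 576 and 58.5. Other probe sets of ROBO4 and PECAM1 above the floor gave smaller differences in OIS. That of ROBO4 had a log2 ratio of 0.28, against 2.45 on its brightest. The 2 of PECAM1 had 0.23 and 0.28, against 1.46 on its brightest. Of 10 smooth muscle and pericyte markers 9 were measured. Of these, 1 was higher and 3 were lower by 2-fold or more in OIS, and 3 were higher and 1 was lower in RS. Of all measured genes 4.92% were higher and 6.63% lower in OIS, and 3.72% and 5.58% in RS. The smooth muscle and pericyte markers summed to 19833, 21015 and 35967, of which most was ACTA2, an actin that fibroblasts also make. The part of either list in the HEY1 and HES1 differences was not tested.

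**Figure D2:**
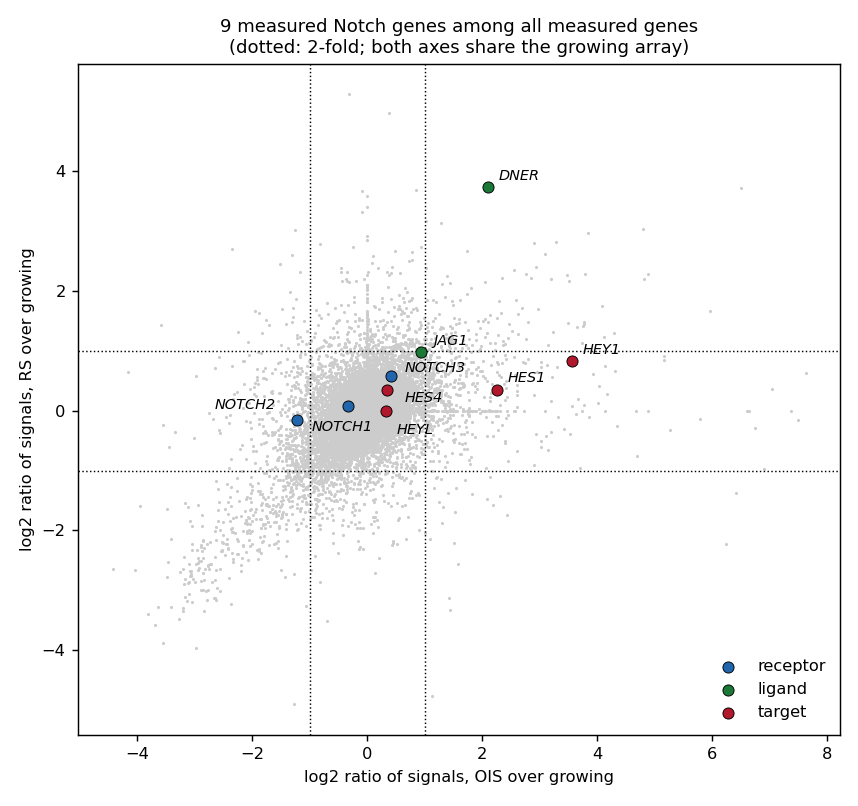
Log2 ratio of signals for OIS over growing cells (x axis) and RS over growing cells (y axis) for 13466 measured genes in grey and the 9 measured Notch genes in color by role, with 2-fold dotted. HEY1 at 3.57 and HES1 at 2.26 lie far right, DNER lies high at 3.73, NOTCH2 lies left at -1.21, and HEYL lies at 0.00 on the y axis because both of its arrays there were at the floor.

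**Figure D3:**
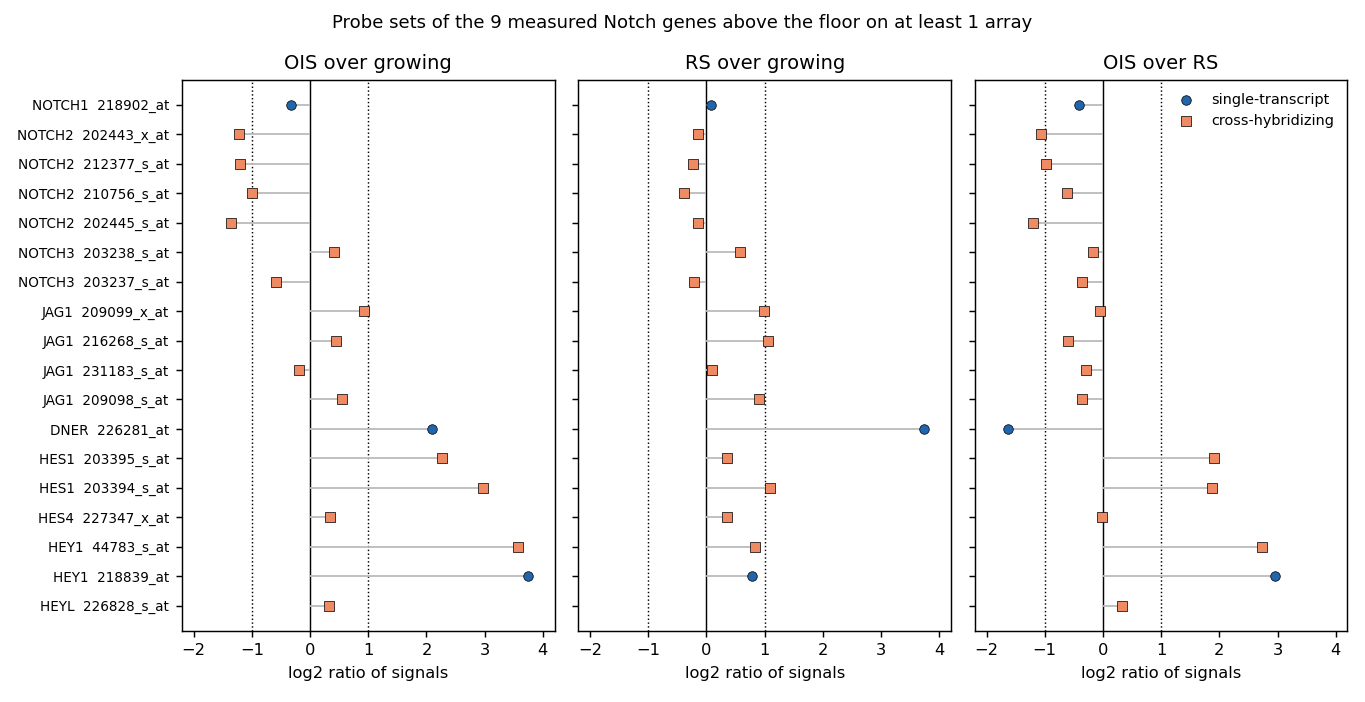
Log2 ratio of signals in each comparison for the 18 probe sets over the floor on any array, with blue circles for the single-transcript type and orange squares for the cross-hybridizing type, and 2-fold dotted. The probe sets of HEY1, HES1 and NOTCH2 fall on 1 side of 0 for each gene in OIS over growing cells, those of HES1 at 2.26 and 2.97, whereas the NOTCH3 pair falls on both sides of 0; a missing point has both arrays below the floor.

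Counted by probe set, 5 of the 18 over the floor were higher by 2-fold or more in OIS than in growing cells, where 4.38% of all probe sets over the floor were, and 4 were lower, where 6.43% were. The 5 belong to HEY1, HES1 and DNER and the 4 to NOTCH2. In RS 3 of 18 were higher by 2-fold or more, where 3.26% of all were, and 0 were lower, where 5.01% were. The 3 belong to DNER, HES1 and JAG1. In OIS against RS 4 were higher, where 4.96% of all were, and 3 were lower, where 5.2% were. Probe sets of 1 gene share their RNA and are not separate results.

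The rest of the pathway was read from a list of 70 genes by role, 64 of which had a probe set naming them alone and 59 of which were measured. In OIS against growing cells 5 were higher by 2-fold or more and 3 lower, 8 of 59, where 11.6% of all measured genes were past 2-fold in either direction. In RS 4 were higher and 3 lower, where 9.3% of all were past it, and in OIS against RS 6 were higher and 1 lower, where 10.7% were. The list median was 0.09, -0.06 and 0.14 in that order. Taken in either direction, these counts lie near the background. By direction, 4.92% of all measured genes were higher and 6.63% lower in OIS against growing cells. The shares were 3.72% and 5.58% in RS, and 5.48% and 5.27% in OIS against RS. The counts by direction are small and were not tested.

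Among the other ligands and receptors, DLL4, the Delta ligand of sprouting vessels, read 43.1 in growing, 228 in OIS and 141 in RS cells. It was below the floor only in growing cells, so OIS was at least 5.0-fold and RS at least 3.09-fold higher. DLK2, a Delta-like inhibitor, read 118, 32.4 and 87.5 and was at least 2.59-fold lower in OIS. DLK1, its relative, read 66.5, 100.3 and 18.2, and was at least 2.20-fold higher in OIS than in RS. JAG2 and NOTCH4 were within 1.21-fold of growing cells in both senescent cultures on their brightest probe sets. The other JAG2 probe set above the floor gave log2 ratios of -0.48 in OIS and 0.26 in RS over growing cells. DLL1 was below the floor on all arrays.

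The machinery that cuts the receptors differed little. None of its 8 measured genes was past 2-fold in any comparison. ADAM10, which makes the first cut, read 11599, 11248 and 10755 in growing, OIS and RS cells, and the related ADAM17 read 1268, 1624 and 1299. Of the sugar-adding enzymes, LFNG, which tunes ligand choice, read 48.1, 101.9 and 29.3, 2.12-fold higher in OIS than in growing cells from a level near the floor. GXYLT2, which adds xylose to the receptors, read 510, 331 and 194 and was 2.63-fold lower in RS.

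Of the genes for ligand and receptor traffic, NEURL1B, a ubiquitin ligase of the Neuralized family that acts on ligands, read 1004 in growing, 170 in OIS and 125 in RS cells. Both senescent cultures were low, at 5.91-fold and 8.04-fold below growing cells. MIB2, of the other ligase family for ligands, read 127, 194 and 298 and was 2.35-fold higher in RS, where its other probe sets gave log2 ratios of 0.29 to 0.66. The genes of the nuclear complex included RBPJ at 8166, 8706 and 7901 and MAML1 at 1462, 1483 and 1204, both within 1.21-fold of growing cells. MAML3, a Mastermind coactivator, read 275, 713 and 672 and was 2.59-fold higher in OIS and 2.44-fold in RS. KAT2B, an acetyltransferase of the complex, read 670, 381 and 837 and was 2.20-fold lower in OIS than in RS.

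Of 10 measured co-repressors, BEND6, a neural antagonist of RBPJ, read 653, 305 and 518 and was 2.14-fold lower in OIS than in growing cells, with a log2 ratio of -1.25 on its other probe set. TLE3, of the Groucho family that HES proteins recruit, read 135, 246 and 102 and was 2.42-fold higher in OIS than in RS. Its 3 other probe sets above the floor gave log2 ratios of 0.57 to 1.06 for that comparison and -0.07 to 0.84 for RS over growing cells. Among HES-related genes, BHLHE40, a stress- and clock-related repressor, read 839, 3928 and 1691, 4.68-fold higher in OIS and 2.02-fold in RS than in growing cells, with log2 ratios of 1.27 and 0.87 on its other probe set. BHLHE41, its relative, read 108, 372 and 123 and was 3.44-fold higher in OIS, although its other probe set gave a log2 ratio of only 0.42. HES6, which opposes HES1 protein, read 131, 101 and 22.8 and was at least 2.88-fold lower in RS than in growing cells and at least 2.22-fold lower than in OIS. NRARP, a feedback inhibitor and direct Notch target, read 104, 93.9 and 103, 1.10-fold lower in OIS and 1.01-fold lower in RS than in growing cells. HES5, another classical target, was below the floor on all arrays.

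**Figure D4:**
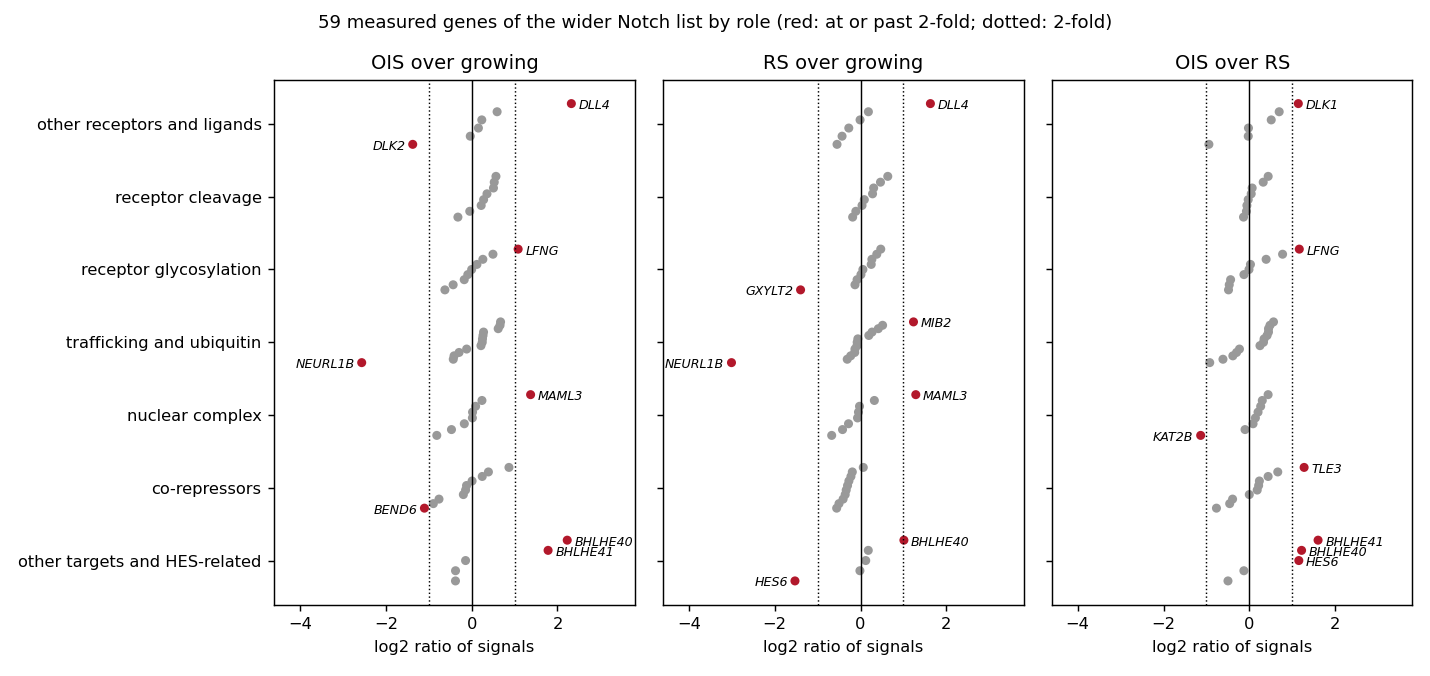
Log2 ratio of signals in each comparison for the 59 measured genes of the wider Notch list, in rows by role, with genes at or past 2-fold in red and named, and 2-fold dotted. None of the 8 receptor cleavage genes passes 2-fold, while DLL4, MAML3, BHLHE40 and NEURL1B do in both comparisons with growing cells.

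Genes with the most similar pattern were sought for each of the 4 genes past 2-fold against growing cells, by the distance between their pairs of log2 ratios (OIS and RS over growing cells) over the 3 arrays. Nearest to HEY1 were CDKN2B, the gene of the cell cycle inhibitor p15, at a distance of 0.27, FOXQ1 at 0.34 and PDE4B at 0.42. CDKN2B read 743 in growing, 7373 in OIS and 1230 in RS cells, but its other probe set, at the floor in growing and RS cells, gave floored log2 ratios of 1.24 in OIS and 0.00 in RS and so did not show the same pattern. Nearest to HES1 were BTN2A2 at 0.11, IFI44 at 0.13 and G0S2 at 0.16, and 12 genes lay within 0.25. Nearest to DNER was SCUBE3, a secreted protein with EGF repeats, yet at a distance of 1.02, with SERPINI1 at 1.11 and PODXL at 1.21, so no measured gene came close to it. Nearest to NOTCH2 were TCHP, MVB12B and SHISA3, all at 0.01, among 78 genes within 0.25, so its pattern was a common one. With 3 arrays such closeness describes 2 ratios only.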

How the data were processed

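Total RNA of the 3 cultures was extracted with a column kit and 250 ng was made into biotinylated cRNA for Affymetrix arrays, per the labels' protocols. Each value deposited by the authors is a linear probe set intensity. The submitters' processing notes name MAS5 as its source, with no version or settings. MAS5 subtracts background and scales each array by 1 factor, so a shift of all genes together would be removed. Of 54613 probe sets, 41091 named 1 gene in the platform annotation, and the 1801 naming several and 11721 naming none were not used for genes.

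From these intensities, values below 45.5 were raised to it, log2 ratios were taken and those of 2-fold or more were counted. Where the dimmer array was not above the floor, the fold is a lower bound, written "at least". Of the wider list, genes past 2-fold in any comparison and 12 fixed genes were named. The 10 genes, the lists, the floor and the alternatives were chosen with earlier results of these data known. With 1 array per condition no test was possible, and precision is limited by the small number of arrays. The steps were tested on simulated data, with changes set only in genes far above the floor on every array. The dimmer growing-cell signals of HES1, HEY1 and DNER were thus not covered by that test. Promoters came from RefSeq, GRCh38.p14. Calculations used Python 3.11.15, numpy 2.4.6, pandas 2.3.3 and matplotlib 3.10.9.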

Additional observations from a re-analysis of the deposited data

Results flagged for a closer look

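In 10 of the genes described, OIS and RS lay on opposite sides of growing cells. With 1 array per condition the difference was not tested. The share of all measured genes that did so was not counted, so the number is not read as a result about these genes. NOTCH1 had a log2 ratio of -0.33 in OIS and 0.075 in RS. In the wider list, NOTCH4 had 0.24 and -0.27, DLK1 0.59 and -0.55, and LFNG 1.08 and -0.080, the last with RS below the floor. RBPJ had 0.092 and -0.048 and MAML1 0.021 and -0.28. Both RBPJ values and the MAML1 and NOTCH4 values in OIS were smaller than the median difference between paired probe sets. So were the NOTCH1 value and the floored LFNG value in RS. The median difference was 0.243 in log2 for OIS and 0.236 for RS over growing cells, and NOTCH4 had 0.236 in OIS. KAT2B, lower in OIS, had -0.81 and 0.32, and TLE3 had 0.87 and -0.41, although its 3 other probe sets ran from -0.07 to 0.84 in RS. Outside the pathway, HRAS had 0.61 and -1.59 and the endothelial marker ROBO4 2.45 and -0.85. The other ROBO4 probe set above the floor gave 0.28 and -0.49. Of the 10, LFNG and ROBO4 were past 2-fold in OIS and HRAS in RS. DLK1 in RS was also below the floor.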

How the results depend on the processing

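HEY1, HES1, DNER and NOTCH2 kept their direction and their side of 2-fold in OIS over growing cells and in OIS over RS under each alternative that gave a value. For OIS over growing cells the log2 ratio ranged from 3.41 to 3.74 for HEY1, 2.15 to 2.34 for HES1, 1.91 to 2.18 for DNER and -1.26 to -1.21 for NOTCH2, and for RS over growing cells that of DNER from 3.50 to 3.79. Of 195 ratios of the 9 genes under alternatives, 193 moved by less than the SD of the difference between paired probe sets and 2 moved by more, both of JAG1. Many of the 193 could not move. Centring changed nothing because the median ratio of all measured genes was already 0.00. Another floor, or no filter, leaves the ratio of a gene above the floors on every array as it was. The count therefore says little about how firm the ratios are. Without cross-hybridizing probe sets 3 of the genes were measured, and 2 were past 2-fold in OIS over growing cells and 2 in OIS over RS in place of 4 each, since NOTCH2 and HES1 then had no probe set above the floor. At 3-fold NOTCH2 dropped out of both comparisons. After quantile normalization 2 in place of 1 were past 2-fold in RS, JAG1 having been added.

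Counts over the wider list moved more, and the share of all measured genes past the mark moved too. For OIS over growing cells 8 became 5 with the median of all probe sets, 5 without cross-hybridizing probe sets and 4 at 3-fold, while the share of all genes went from 11.6% to 8.27%, 11.4% and 4.7%. For RS over growing cells 7 became 4 with the median of all probe sets and 2 at 3-fold, with 9.3% of all genes becoming 6.47% and 3.45%. For OIS over RS 7 became 14 with the floor at the 25th percentile (11.7) and 4 at the 60th (88.8), 2 with the median of all probe sets, 4 without cross-hybridizing probe sets and 1 at 3-fold. The share of all genes there went from 10.7% to 18.3%, 10%, 7.45%, 11.1% and 4.14%, in that order. Centring each ratio, no filter on low values, and a pseudocount of 16 without a floor kept each count within 1.5 times. Centring could move none of them, since the median ratio was already 0.00. No paired analysis was possible because each condition had 1 array. Signals near the floor limit DLL4, LFNG, HEYL and HES6.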
